A study of Mus musculus with 36 samples.

Results

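The glycolysis and gluconeogenesis genes described here are 36 genes chosen by symbol, of 53379 gene identifiers in the count tables. They encode the glucose transporters Slc2a1 and Slc2a3, the enzymes that take glucose to pyruvate and lactate, the lactate carriers Slc16a1 and Slc16a3, and the enzymes that run the pathway backwards. All 36 were found. Aldoa carried 2 identifiers, and the one with almost all of its reads was used (ENSMUSG00000030695.16); the other held 37 counts over all libraries.

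RNA had been sequenced from 36 libraries of formalin-fixed, paraffin-embedded mouse tissue, in 7 groups. The adult animals carried Sglt2-Cre, a recombinase driven by the promoter of the glucose carrier of the proximal tubule. Control kidneys came from 3 mice with Sglt2-Cre alone (6 libraries). Mice of the genotype Sglt2-Cre; ASPSCR1-TFE3 LSL/+, in which Cre removes a stop cassette and switches on the ASPSCR1-TFE3 fusion of translocation renal cell carcinoma, gave kidney tumors (6 mice, 11 libraries), non-transformed kidney (4 of these mice), retro-orbital tumors (4 of these mice) and brain tumors (3 of these mice). Dysmorphic fetal kidneys came from 5 fetuses of the genotype Pax8-Cre; ASPSCR1-TFE3 LSL/+, in which Cre is driven by a promoter of the developing kidney epithelium. The 3 control fetal kidneys were labelled Pax8-Cre, while the series text allows either single allele for them. Ages were not given in the labels. The libraries of a mouse and group were summed, so each n below counts animals. Levels, ranges and overlaps of groups refer to these sums unless libraries are named.

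Glycolysis splits glucose into pyruvate and yields a little ATP without oxygen. Most of its steps can be run by several isozymes, close relatives from separate genes that differ in tissue and in how they are regulated. Hexokinase 1 is the isozyme of most tissues and hexokinase 2 that of muscle, fat and many tumors; enolase 1 is widespread, enolase 2 is known from neurons and enolase 3 from muscle. The proximal tubule of the kidney is a site of gluconeogenesis, in which Pcx, Pck1, Fbp1 and G6pc bypass the irreversible steps of glycolysis and release glucose into the blood.

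Each library held 80205573 to 121415057 counts. Gpnmb, a gene that TFE3 fusions are known to switch on, checked the labels: it stood at 1.54 to 2.46 CPM (counts scaled to the library total, after TMM normalization) in the 3 control kidneys and at 2826 to 7325 CPM in the 6 kidney tumors. Non-transformed kidneys held 111.2 to 446.8 CPM of Gpnmb, far above the controls. A summed level of 8 proximal tubule markers, none of them at 0 throughout a group, differed widely among the tumors. It was 14450 to 15450 CPM in control kidneys and 14180 to 18390 CPM in non-transformed kidneys. In kidney tumors it was 746.4 to 818.6 CPM in mice 2, 3 and 6, 3505 CPM in mouse 1, 10050 CPM in mouse 4 and 11680 CPM in mouse 5. By Y-linked transcripts, none of the 3 control mice and 2 of the 6 tumor mice (1 and 5) were male, so sex and genotype overlap in part.

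The sequences below are windows of 250 bases before to 50 bases after a RefSeq transcription start (GRCm38.p6), 5′ to 3′ on the strand of the gene. They are shown because these 4 genes, an enzyme that traps glucose, an enzyme that makes the activator of phosphofructokinase and both lactate carriers, were higher in kidney tumors, and because TFE3 binds E-boxes. Capitals mark the letters CACGTG (an E-box), TCACGTG (the longer form bound by TFE3 and its relatives, which contains an E-box) and ACGTG (the core of the hypoxia response element, which every E-box also contains), on either strand. The Hk2 window is chr6:82774405-82774704 on the minus strand, the Pfkfb3 window is chr2:11502041-11502340 on the minus strand, the Slc16a1 window is chr3:104638414-104638713 on the plus strand and the Slc16a3 window is chr11:120948817-120949116 on the plus strand.
Hk2: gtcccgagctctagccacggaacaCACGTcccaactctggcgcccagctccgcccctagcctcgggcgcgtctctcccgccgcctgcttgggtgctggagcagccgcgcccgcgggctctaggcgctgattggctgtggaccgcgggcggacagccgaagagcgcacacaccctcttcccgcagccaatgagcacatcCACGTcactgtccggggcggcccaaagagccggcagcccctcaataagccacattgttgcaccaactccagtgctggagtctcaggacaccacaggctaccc
Pfkfb3: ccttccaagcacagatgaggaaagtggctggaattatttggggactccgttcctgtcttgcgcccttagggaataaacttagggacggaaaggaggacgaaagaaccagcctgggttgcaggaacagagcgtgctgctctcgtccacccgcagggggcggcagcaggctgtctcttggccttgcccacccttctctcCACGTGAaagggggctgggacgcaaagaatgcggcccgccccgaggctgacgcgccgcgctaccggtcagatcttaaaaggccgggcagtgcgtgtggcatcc
Slc16a1: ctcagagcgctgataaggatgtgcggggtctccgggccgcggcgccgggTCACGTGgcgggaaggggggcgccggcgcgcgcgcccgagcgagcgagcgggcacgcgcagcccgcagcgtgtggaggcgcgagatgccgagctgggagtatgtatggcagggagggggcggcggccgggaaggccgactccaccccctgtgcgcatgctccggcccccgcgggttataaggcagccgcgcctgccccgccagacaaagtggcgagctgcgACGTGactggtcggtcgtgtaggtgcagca
Slc16a3: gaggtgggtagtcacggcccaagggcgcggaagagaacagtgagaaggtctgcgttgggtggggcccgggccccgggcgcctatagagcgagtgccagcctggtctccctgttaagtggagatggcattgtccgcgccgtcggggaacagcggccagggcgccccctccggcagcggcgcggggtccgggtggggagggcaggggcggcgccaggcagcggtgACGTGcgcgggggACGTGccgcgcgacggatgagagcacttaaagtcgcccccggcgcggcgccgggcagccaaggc
Pfkfb3 has a second window in the table, chr2:11553880-11554179, which held ACGTG and no E-box; the one printed was chosen for its E-box. The printed windows of Pfkfb3 and Slc16a1 held the longer E-box, while Hk2 and Slc16a3 held ACGTG without an E-box. Windows were found for 35 of the 36 genes, all but Slc2a3. CACGTG stood in a window of 7 of these 35 genes, against 8.09% of 27025 genes and 7.15% of 32851 windows. TCACGTG stood in 6 of the 35, against 4.29% of genes, and ACGTG in 18 of the 35, against 21.8% of genes. Of the 11 genes that were called higher in kidney tumors than in control kidneys and had a window, 2 held CACGTG and 6 held ACGTG. A match describes letters, and binding was not measured here.

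In kidney tumors, 12 of the 36 genes rose and 1 fell against control kidneys by edgeR's quasi-likelihood test (adjusted p under 0.05 over all 23578 genes tested). Over the whole table, 12.5% of genes passed as higher and 6.51% as lower. The 12 spanned uptake (Slc2a3), the first committed steps (Hk2, Pfkp, Pfkfb1, Pfkfb3), the lower pathway (Aldoa, Eno2, Eno3, Pkm), lactate export (Slc16a1, Slc16a3) and mitochondrial Pck2. The one that fell was Pcx. Without control mouse 2 or without control mouse 3, 5 calls were left (Hk2, Pfkfb3, Eno2, Eno3 and Slc16a3), and without control mouse 1 there were 7 (these 5, Pfkp and Pcx). Calls over the whole table went from 4474 to 1163, 1207 and 2084 in these fits. Aldoa and Slc16a1 were also lost without the tumors of mouse 2, 3 or 6. The median log2 fold change of the 36 genes was 0.65, beside 0.05 over all genes. In the same comparison 3 of the 9 leukocyte markers and 1 of the 10 brain markers were called higher. Leukocyte markers summed to 147.4 to 165.5 CPM in control kidneys and 200.7 to 503.4 CPM in kidney tumors, and their part in these results was not tested.

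Against non-transformed kidney of the same genotype, 13 genes rose and 1 fell in kidney tumors, with 12.1% of all genes higher and 5.02% lower. These were Slc2a3, Hk2, Hk3, Pfkp, Pfkfb2, Pfkfb3, Aldoa, Eno1, Eno3, Pkm, Slc16a1, Slc16a3 and Pck2, and again Pcx. This comparison uses the same kidney tumors as the one above, so the lists are not independent. Here 3 of the 9 leukocyte, 1 of the 10 brain and 1 of the 4 endothelial markers were called higher, and their part was not tested. With mouse as a block over the 4 mice that gave both tissues, 9 of the 14 calls were kept; Hk3, Pfkfb2, Aldoa, Eno1 and Pcx were lost (edgeR adjusted p = 0.204, 0.212, 0.215, 0.185 and 0.0848). No member was called between non-transformed and control kidneys by edgeR, where 0.00952% of all genes were higher and 0% lower; 8 had an unadjusted p under 0.05, and DESeq2 called 2, Hk2 and Slc16a1.

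**Figure D1:**
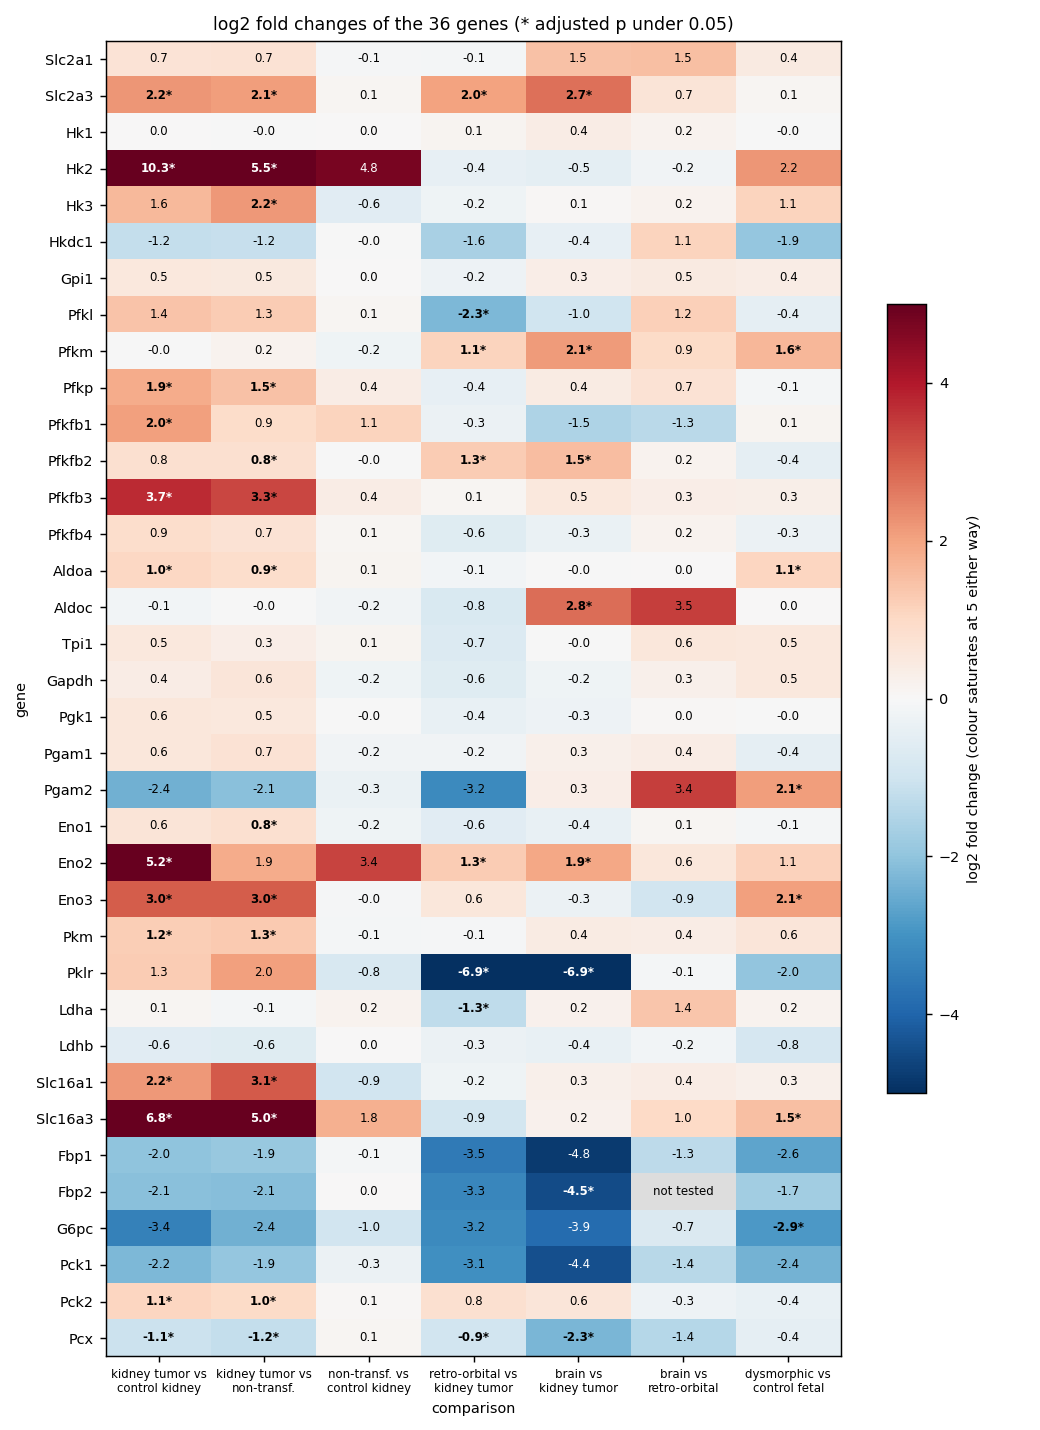
Heat map of log2 fold changes of the 36 genes (rows) in 7 comparisons (columns); red is higher and blue lower in the group named first, and stars mark an edgeR adjusted p under 0.05. Hk2 at 10.31 and Slc16a3 at 6.82 head the first column, Pklr at -6.88 stands out in both columns of tumors at other sites, and Fbp1, Fbp2, G6pc and Pck1 are blue in both columns of kidney tumors against kidneys, without a star.

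Of the glucose transporters, Slc2a1 (GLUT1), the carrier of most tissues, held 91.5% to 98.0% of the pair's per-kilobase level in kidney tumors and was not called by edgeR in any comparison as designed. It was called higher in kidney tumors than in control kidneys with sex as a covariate (log2 fold change 0.95, edgeR adjusted p = 0.0278) and without mouse 1. Slc2a3 (GLUT3), a carrier of high affinity known from neurons, had 1.12, 1.56 and 1.34 CPM in the control kidneys and 2.33, 4.59 and 14.2 CPM as the lowest, median and highest of 6 kidney tumors. The groups did not overlap, and Slc2a3 rose (log2 fold change 2.22, SE 0.57, edgeR adjusted p = 0.0277). Tumors at other sites held more again: 14.7, 30.5, 30.5 and 27.0 CPM in the retro-orbital tumors of mice 2, 3, 5 and 6, and 47.8, 30.2 and 45.4 CPM in the brain tumors of mice 1, 2 and 4. Every one of these 7 tumors lay above the summed kidney tumor level of every mouse. The kidney tumor libraries of mouse 3 had 26.55 and 1.80 CPM, the first of them above the retro-orbital tumor of mouse 2. Both differences passed the test (log2 fold change 2.0, SE 0.46, edgeR adjusted p = 0.0155 at the retro-orbital site and 2.75, SE 0.50, edgeR adjusted p = 0.0176 in brain). The retro-orbital call was kept with mouse as a block (p = 0.0216 by edgeR, adjusted) and lost without mouse 5 or mouse 6. The brain call was lost with the block (0.267) and without mouse 1 or mouse 2.

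In the brain, Slc2a1 stood at 388.9 CPM in mouse 4 beside 42.4 and 51.5 CPM in mice 1 and 2. Markers of endothelium, which carries GLUT1 at the blood-brain barrier, summed to 1160 CPM in that tumor and to 160.4 and 231.5 CPM in the other two. Of the 4 endothelial markers, none was called higher and 1 was called lower in brain tumors than in kidney tumors. Markers of brain tissue (10 genes, none at 0 throughout this group) summed to 131.1, 2016 and 511.1 CPM in the brain tumors of mice 1, 2 and 4, against a lowest of 19.7 and a median of 34.0 CPM in kidney tumors, all of which lay lower, and 4 of them were called higher. Their part in the results for brain tumors was not tested. In bulk tissue, fewer cells of a type and less RNA per cell cannot be told apart.

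Hexokinases phosphorylate glucose and so trap it in the cell. Hk2 (ENSMUSG00000000628.10, chromosome 6, 82725025 to 82774454, minus strand, GRCm38) had 1.39, 1.16 and 1.51 CPM in the control kidneys. The kidney tumors held 672.0, 1804 and 2559 CPM as lowest, median and highest. Every tumor stood far above every control, and the ratio of the group means was 1280 (log2 fold change 10.31, SE 0.68, edgeR adjusted p = 0.000131). Hk2 was called in every alternative tried for this comparison, among them each mouse left out in turn. Non-transformed kidneys stood between the groups, at 19.1, 60.8, 48.9 and 17.2 CPM in mice 1, 3, 4 and 5, overlapping with neither. Their difference from control kidneys was not called by edgeR (4.76, SE 0.53, adjusted p = 0.0806), and DESeq2 gave 4.75 with an adjusted p of 4.14e-26. Gpnmb was also raised in these 4 kidneys (above); whether tumor cells within them carried the Hk2 reads was not tested.

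Retro-orbital tumors held 1369, 1286, 1350 and 1388 CPM of Hk2, and brain tumors 1608, 648.0 and 1338 CPM. These ranges overlapped with that of the kidney tumors, and neither site was called against them. Within mice with 2 kidney tumor libraries, Hk2 differed between the libraries by a median of 0.62 on the log2 scale and by at most 1.62. Dysmorphic fetal kidneys had 100.6, 233.0, 56.6, 64.0 and 69.4 CPM beside 22.6, 20.9 and 24.3 CPM in the control fetal kidneys. These groups did not overlap either, but edgeR missed the call (log2 fold change 2.20, SE 0.52, adjusted p = 0.0662) except without dysmorphic fetus 2. DESeq2 called Hk2 there (adjusted p = 0.000397). The change in kidney tumors was larger than that in dysmorphic fetal kidneys by 8.16 (SE 0.79, edgeR adjusted p = 9.69e-06 for the interaction).

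Hk1 did not pass the test in any comparison: its kidney tumor levels, 86.0, 193.5 and 271.7 CPM, spanned the 190.4, 172.0 and 191.8 CPM of the control kidneys (log2 fold change 0.01, SE 0.29, edgeR adjusted p = 0.99). Levels of different genes were compared only per kilobase of exon, as the share of an isozyme in the summed level of its family. On this scale Hk1 made up 94.8% to 96.5% of hexokinase in control kidneys, 69.2% to 85.2% in non-transformed kidneys and 4.49% to 17.7% in kidney tumors, where Hk2 held 82.0% to 95.4%. The leading hexokinase was thus Hk1 in both non-tumor kidneys and Hk2 in tumors of all 3 sites, with 87.9% to 93.0% in retro-orbital and 79.6% to 92.6% in brain tumors. The summed level of the family was higher too, from a median of 23.1 CPM per kilobase in control kidneys to 325.3 in kidney tumors.

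The fetal kidneys had another mixture. Hkdc1, a hexokinase-related protein known from gut and kidney epithelium, held 48.6% and 56.6% of the family in control fetuses 2 and 3 but 4.08% in control fetus 1, where Hk1 led with 63.2%. In the dysmorphic kidneys Hk2 led, with 43.0% to 80%, and Hkdc1 was 0.44% to 2.82% of the family in 4 of them but 29.5% in dysmorphic fetus 5. Control fetus 1 also lacked most of the Pklr and Fbp2 of the other 2 controls, as given below. Hk3, the hexokinase of white blood cells, stayed at 3.95 CPM or lower in every animal; edgeR called it higher in kidney tumors than in non-transformed kidneys (log2 fold change 2.15, SE 0.64, edgeR adjusted p = 0.0437). DESeq2 also called it higher in dysmorphic than in control fetal kidneys (adjusted p = 0.0102). The 9 leukocyte markers summed to 200.7 to 503.4 CPM in kidney tumors and 90.9 to 215.0 CPM in non-transformed kidneys, and 3 of them were called higher; their part in the Hk3 result was not tested.

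**Figure D2:**
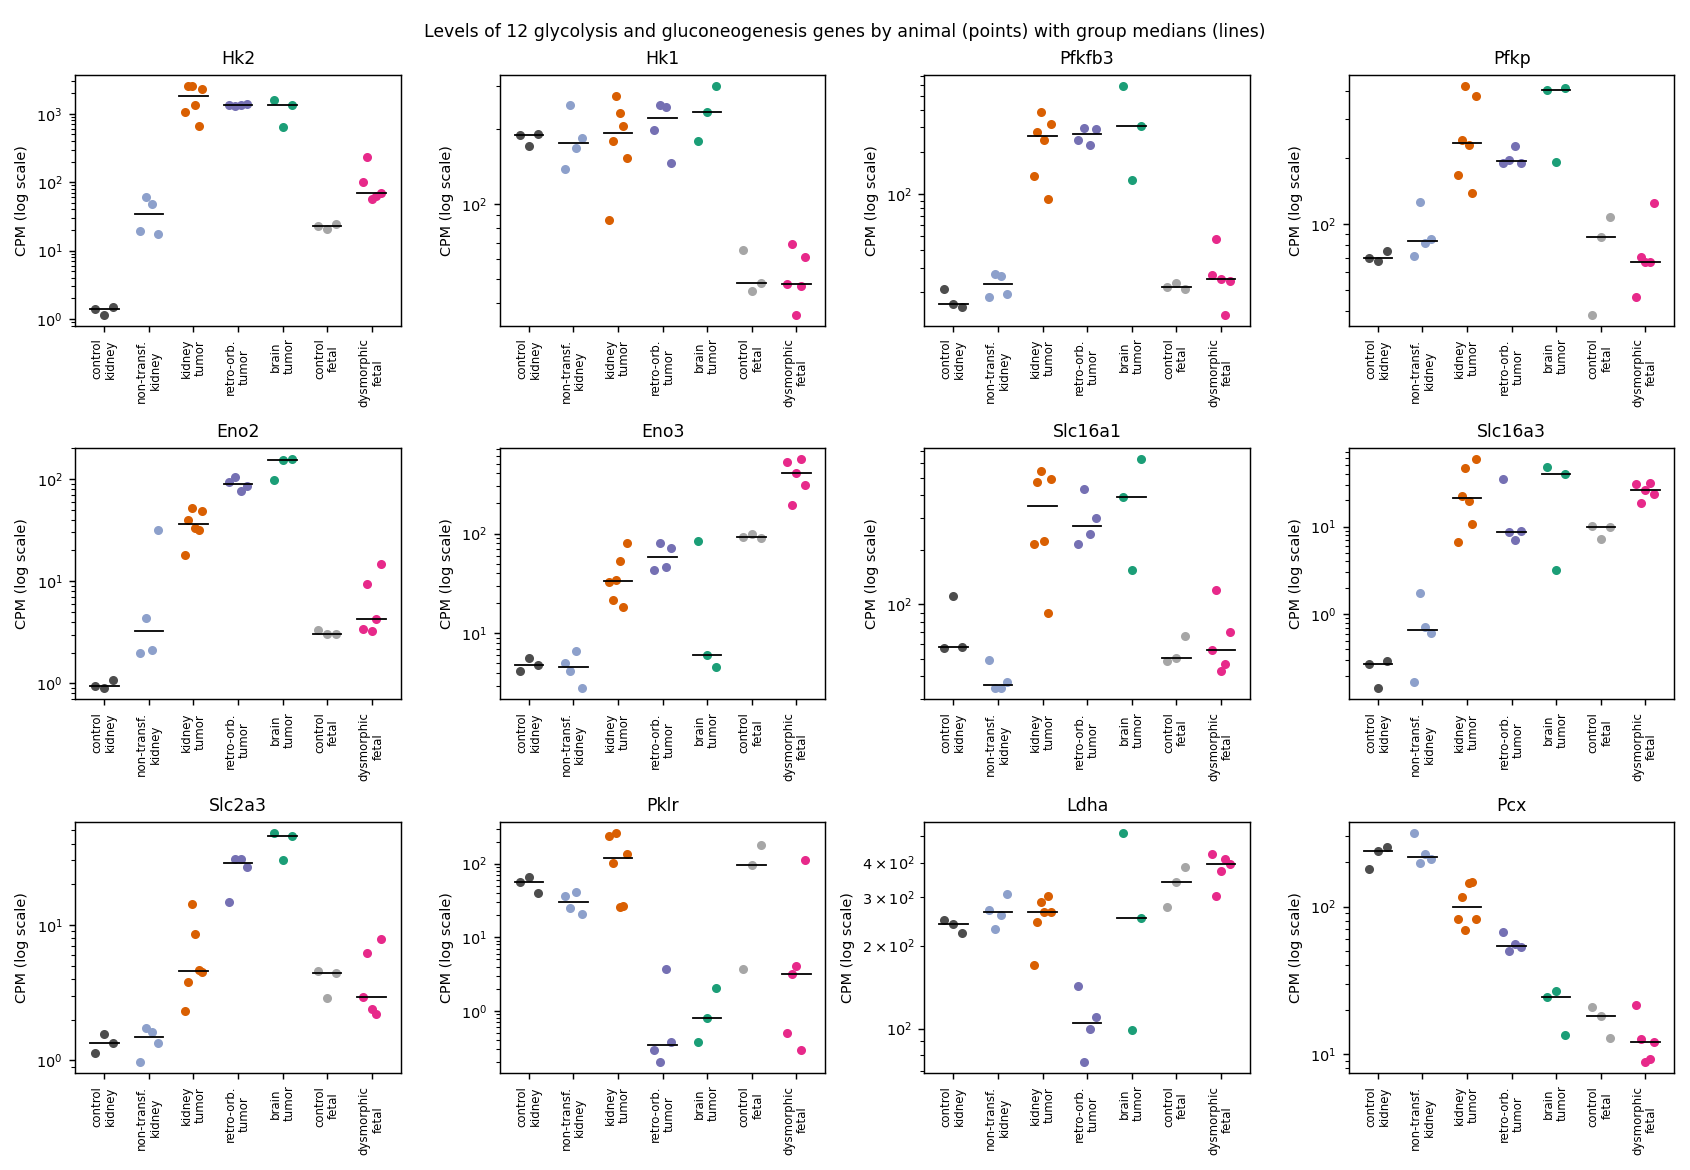
Levels in CPM (log scale, vertical) of 12 genes in the 7 groups (horizontal); each point is 1 animal and each line a group median. Hk2 climbs from 1.16 to 1.51 CPM in control kidneys through 17.2 to 60.8 CPM in non-transformed kidneys to 672.0 to 2559 CPM in kidney tumors, whereas Hk1 in kidney tumors (86.0 to 271.7 CPM) spans the controls (172.0 to 191.8 CPM).

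Phosphofructokinase is the committed step of glycolysis. Its platelet-type isozyme Pfkp had 70.1, 67.9 and 74.8 CPM in control kidneys and 138.1, 234.0 and 423.3 CPM as lowest, median and highest in kidney tumors. No tumor overlapped with a control, and Pfkp rose (log2 fold change 1.87, SE 0.37, edgeR adjusted p = 0.0107). The muscle-type Pfkm stayed within the control range or near it in kidney tumors (44.3 to 103.6 CPM; controls 59.4 to 83.0) and was not called. The liver-type Pfkl reached 186.5 CPM in kidney tumors beside 43.6 to 45.6 CPM in controls but missed the threshold (1.41, SE 0.49, edgeR adjusted p = 0.0709). It was called higher by DESeq2 (adjusted p = 0.0277), by edgeR with sex as a covariate (0.00285) and without mouse 1 or mouse 5.

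At the other sites the isozymes parted ways. Summed by mouse, Pfkl did not overlap between retro-orbital and kidney tumors, although a kidney tumor library of mouse 1 had 33.4 CPM. It was lower in retro-orbital tumors, at 37.0, 19.9, 24.2 and 20.4 CPM against 37.1 to 186.5 CPM (log2 fold change -2.26, SE 0.46, edgeR adjusted p = 0.00943). Pfkm had 120.8, 262.3, 92.8 and 157.4 CPM in the same tumors and was higher (1.11, SE 0.29, edgeR adjusted p = 0.0261; 0.051 with mouse as a block). In brain tumors Pfkm had 636.1, 179.4 and 115.9 CPM and was higher as well (2.13, SE 0.46, edgeR adjusted p = 0.0281; 0.468 with the block). Per kilobase, Pfkm held 60.1% to 67.6% of the family in control kidneys, 27.4% to 50.6% in kidney tumors, 57.6% to 81.7% at the retro-orbital site and 44.6% to 83.8% in the brain. These shares depend on the length correction: without it the median at the retro-orbital site was 38.8% in place of 69.0%, and Pfkp led in kidney tumors. None of the 11 skeletal muscle markers was called at either site; they summed to 3.76 to 13.4 CPM in retro-orbital and 6.68 to 42.1 CPM in brain tumors, below or within the 4.46 to 156.7 CPM of kidney tumors.

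The bifunctional enzymes make and break fructose 2,6-bisphosphate, the strongest activator of phosphofructokinase, and the Pfkfb3 form favors its synthesis. Pfkfb3 (ENSMUSG00000026773.19, chromosome 2, 11471433 to 11554077, minus strand) had 20.99, 16.5 and 15.6 CPM in control kidneys, 18.5, 27.2, 26.2 and 19.4 CPM in non-transformed kidneys, and 92.7, 260.6 and 385.2 CPM as lowest, median and highest in kidney tumors. Tumors stood above both kidney groups without overlap, while the kidney groups overlapped with each other. Pfkfb3 rose against control kidneys (log2 fold change 3.75, SE 0.49, edgeR adjusted p = 0.00154) and against non-transformed kidneys (3.34, SE 0.41, 0.00068). Retro-orbital tumors, at 244.7, 297.2, 223.4 and 289.2 CPM, and brain tumors, at 589.9, 126.6 and 307.5 CPM, lay around the kidney tumors and were not called against them. The fetal groups overlapped, with 21.3 to 23.3 CPM in controls and 13.9 to 47.9 CPM in dysmorphic kidneys, and the change in adult tumors exceeded the fetal one by 3.51 (SE 0.60, edgeR adjusted p = 0.00208).

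Pfkfb3 already led its family in control kidneys with 46.1% to 55% of the per-kilobase level, and reached 76.7% to 89.3% in kidney tumors. Pfkfb1, the liver form, rose at a low level, from 1.37 to 1.94 CPM in controls to 3.09 to 12.9 CPM in kidney tumors (log2 fold change 2.04, SE 0.49, edgeR adjusted p = 0.0228). Pfkfb2, the heart form, was higher in retro-orbital than in kidney tumors, with 17.9, 37.5, 23.9 and 20.6 CPM against 6.41 to 13.7 CPM (1.26, SE 0.26, edgeR adjusted p = 0.0094; 0.0305 with the block). Brain tumors, at 30.4, 23.9 and 32.1 CPM, were also above all kidney tumors (1.53, SE 0.25, edgeR adjusted p = 0.0137; 0.297 with the block). Pfkfb4, known from testis, was called in no comparison as designed, and in kidney tumors against control kidneys without mouse 4 or without mouse 5.

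Aldolase splits fructose bisphosphate. Aldoa, the aldolase of muscle and most other tissues, had 788.6, 803.8 and 751.6 CPM in control kidneys and 864.3, 1703 and 2127 CPM as lowest, median and highest in kidney tumors. The groups did not overlap, and the rise passed the test (log2 fold change 1.02, SE 0.27, edgeR adjusted p = 0.0299).

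Gpi1, Tpi1, Gapdh and Pgk1, for which no sister isozyme was on the list, were not called by edgeR in any comparison as designed. With sex as a covariate all 4 were called higher in kidney tumors than in control kidneys (edgeR adjusted p = 0.013, 0.0267, 0.0248 and 0.00762), and DESeq2 called Gpi1 higher in dysmorphic fetal kidneys (adjusted p = 0.00371). Gapdh, often used as a reference gene, had 6414, 7188 and 6199 CPM in control kidneys and 5198, 8979 and 11900 CPM as lowest, median and highest in kidney tumors (log2 fold change 0.39, SE 0.27, edgeR adjusted p = 0.332). Aldoc, the brain aldolase, was called higher in brain than in kidney tumors (2.78, SE 0.74, edgeR adjusted p = 0.0488; block fit not called). Its levels were 7.08, 160.7 and 34.0 CPM in the brain tumors of mice 1, 2 and 4, in the same order as the brain markers, and 4.02 to 13.6 CPM in kidney tumors. The brain tumor of mouse 1 lay within the kidney tumor range.

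Enolase makes phosphoenolpyruvate. Eno2 (ENSMUSG00000004267.16, chromosome 6, 124760053 to 124769673, minus strand) had 0.94, 0.90 and 1.08 CPM in control kidneys and 18.2, 36.2 and 51.5 CPM as lowest, median and highest in kidney tumors. Every tumor stood far above every control (log2 fold change 5.23, SE 0.39, edgeR adjusted p = 0.000144). Non-transformed kidneys of mice 1, 3 and 4 had 1.99, 4.33 and 2.11 CPM, while that of mouse 5 had 31.97 CPM, within the tumor range. Tumors against non-transformed kidneys were not called for this gene by edgeR (1.86, SE 0.77, adjusted p = 0.12). They were called by DESeq2 (adjusted p = 0.0482) and by edgeR without mouse 5.

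Eno2 was higher again outside the kidney. It had 92.7, 104.9, 76.1 and 84.5 CPM in retro-orbital tumors (log2 fold change 1.25 against kidney tumors, SE 0.25, edgeR adjusted p = 0.00821; 0.0166 with the block) and 97.6, 153.9 and 155.0 CPM in brain tumors (1.92, SE 0.30, 0.0113; 0.267 with the block). All 7 lay above the summed kidney tumor level of every mouse. The kidney tumor libraries of mouse 3 had 80.61 and 21.68 CPM, the first of them above the retro-orbital tumor of mouse 5. Among the adult groups the order of medians was control kidney, non-transformed kidney, kidney tumor, retro-orbital tumor and brain tumor, and the last 2 groups overlapped and were not called against each other. Brain markers in retro-orbital tumors summed to 26.6 to 70.0 CPM, within the range of kidney tumors.

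Eno3 had 4.21, 5.70 and 4.82 CPM in control kidneys and 18.4, 33.4 and 80.9 CPM as lowest, median and highest in kidney tumors (log2 fold change 3.01, SE 0.51, edgeR adjusted p = 0.00563). Retro-orbital tumors were alike in range at 43.4, 80.03, 46.3 and 71.0 CPM. The brain tumors split: 85.0 CPM in mouse 1 and 6.14 and 4.59 CPM in mice 2 and 4. Eno1 remained the leading enolase in all adult groups, with 97.9% to 98.5% of the family in control kidneys, 86.3% to 92.3% in kidney tumors, 72.4% to 80.8% in retro-orbital and 73.5% to 88.4% in brain tumors. Eno1b, a near copy of Eno1, had 0.42% of its counts. Named copies of Gapdh, Aldoa, Pgk1, Pgam1, Ldha and Tpi1 held 0.02% to 1.87% of the counts of their parent genes; how reads that fit both were counted is not given in the sources used here.

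Of the phosphoglycerate mutases, Pgam1 is the general and Pgam2 the muscle form. Pgam2 had 23.8, 38.6 and 30.2 CPM in control kidneys and 0.20, 2.54 and 22.4 CPM as lowest, median and highest in kidney tumors. The lowest value was in mouse 6 and the highest in mouse 4, and the difference missed the threshold (log2 fold change -2.40, SE 1.08, edgeR adjusted p = 0.142) except without mouse 4. Per kilobase, the leading mutase went from Pgam2 (55.7% to 64.4%) in control kidneys to Pgam1 in kidney tumors, where Pgam2 held 0.51% to 41.3%. This change of leader depended on the length correction: by counts alone Pgam1 led in both groups.

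**Figure D3:**
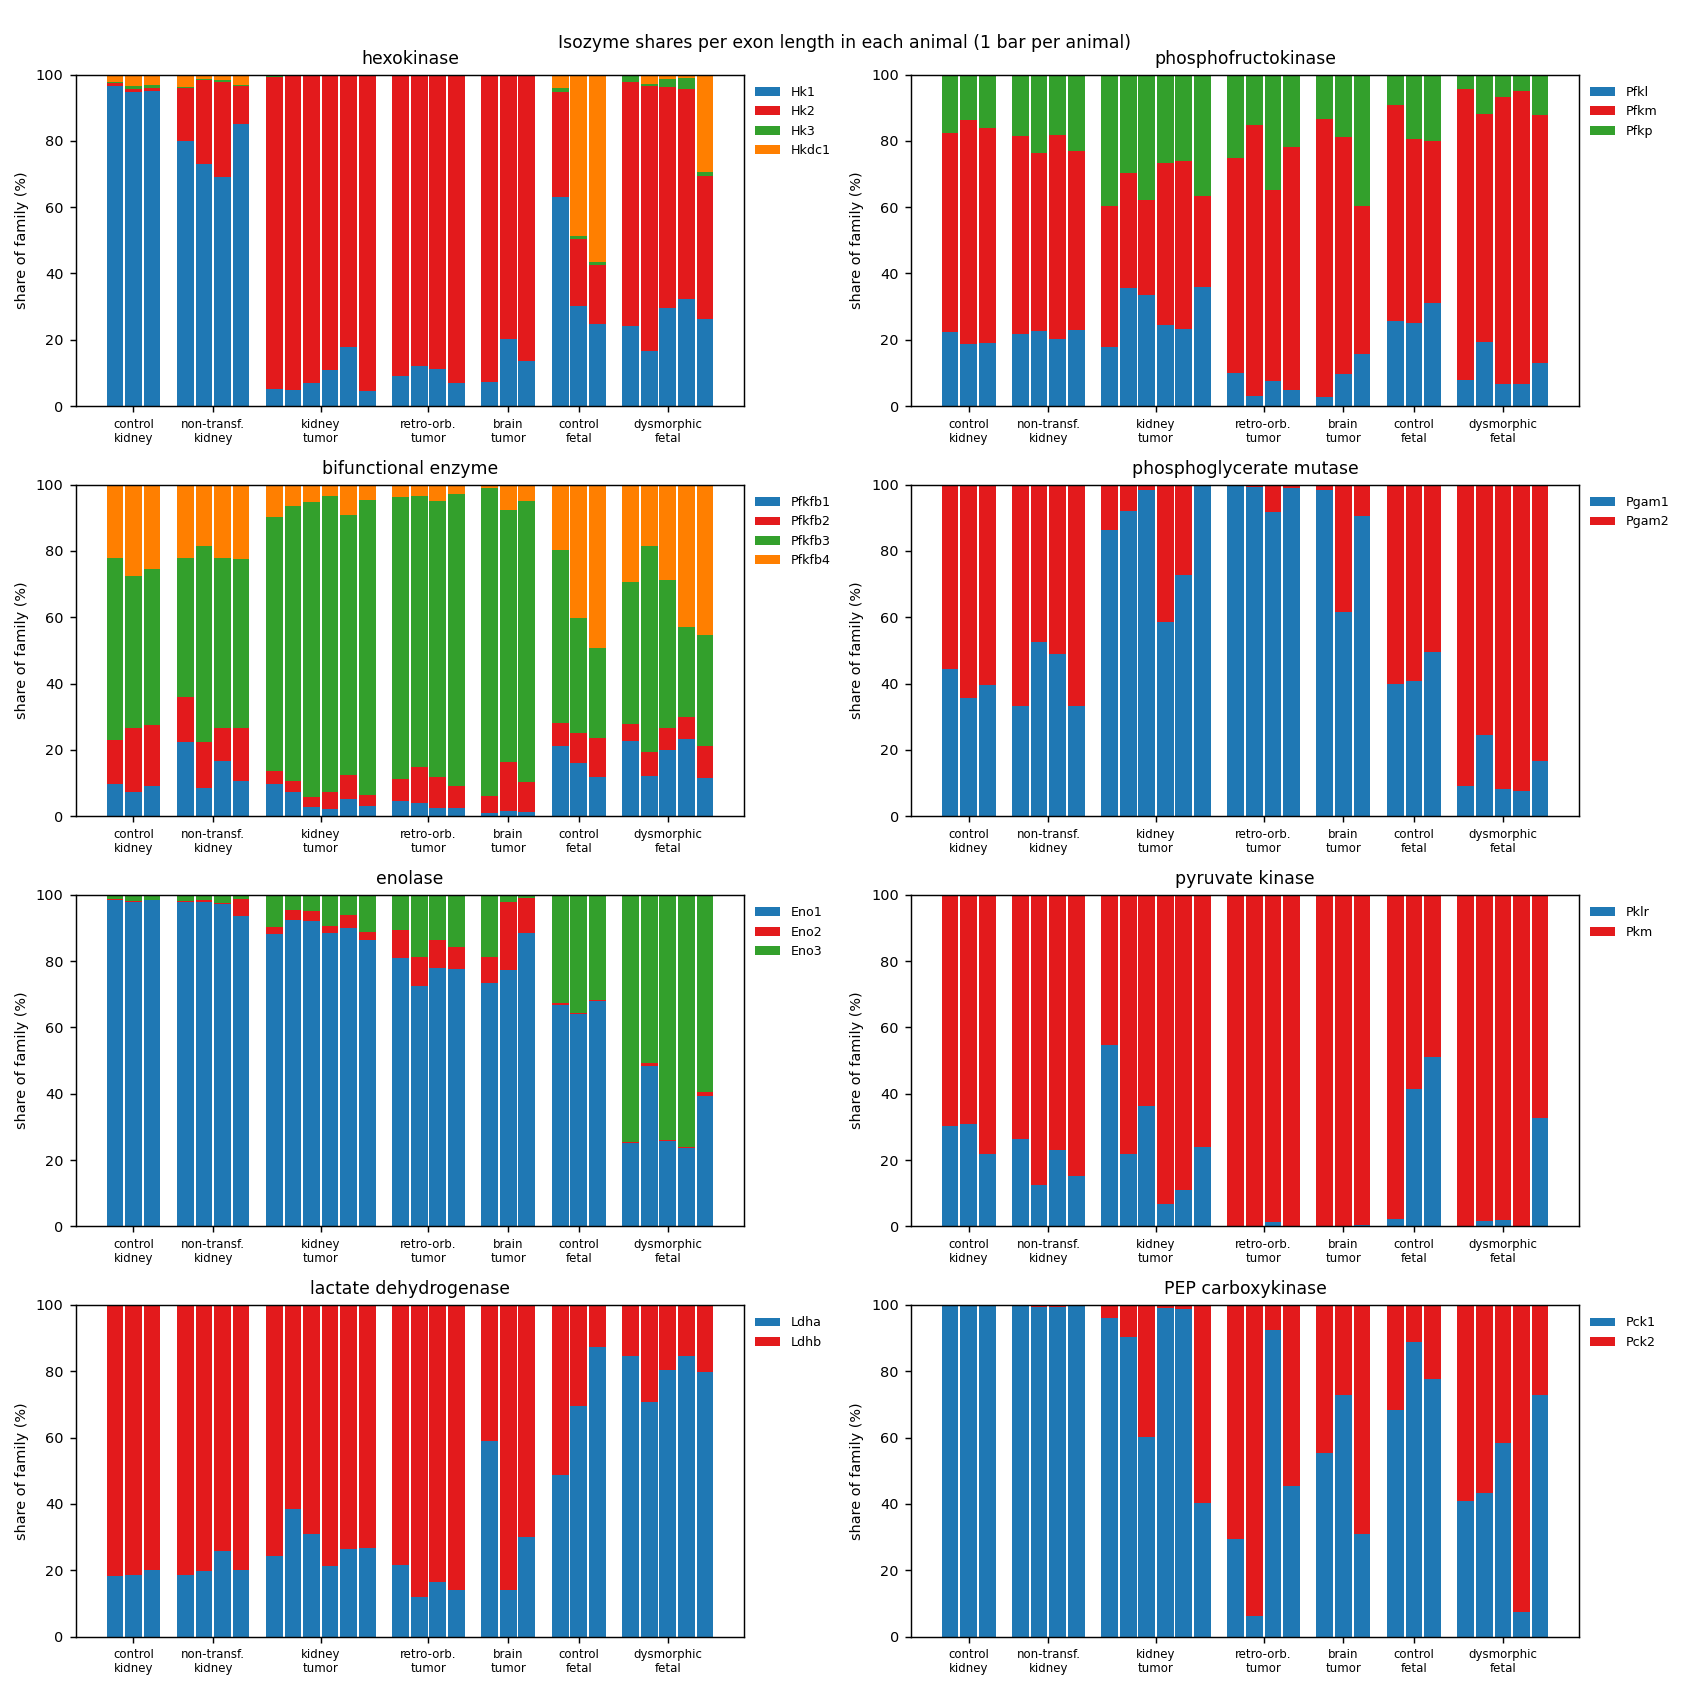
Share of each isozyme in the summed per-kilobase level of its family (percent, vertical), 1 stacked bar per animal, for 8 families over the 7 groups (horizontal). Hk2 is 0.92% to 1.07% of hexokinase in control kidneys and 82.0% to 95.4% in kidney tumors, Pkm is 98.7% or more of pyruvate kinase in tumors at both other sites, and Eno3 is 50.8% to 76.1% of enolase in dysmorphic fetal kidneys.

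Pyruvate kinase ends glycolysis. Pkm, the gene of the M1 and M2 forms, had 201.4, 231.0 and 223.7 CPM in control kidneys and 310.0, 561.7 and 707.9 CPM as lowest, median and highest in kidney tumors, without overlap (log2 fold change 1.24, SE 0.29, edgeR adjusted p = 0.02). Counts per gene do not tell M1 from M2. Pklr, the form of liver, red cells and proximal tubule, had 56.6, 66.8 and 40.3 CPM in control kidneys and ranged from 25.9 CPM in mouse 4 to 261.0 CPM in mouse 3 among kidney tumors, with a median of 118.8 CPM. It was not called there (1.26, SE 0.76, edgeR adjusted p = 0.255).

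Pklr was nearly absent from tumors at the other sites. The retro-orbital tumors of mice 2, 3, 5 and 6 had 0.29, 0.20, 3.66 and 0.38 CPM, and the brain tumors of mice 1, 2 and 4 had 0.38, 0.80 and 2.04 CPM. None overlapped with a kidney tumor, and the means were 116 and 123 times lower. Both log2 fold changes were -6.88 (SE 1.29, edgeR adjusted p = 0.0066 at the retro-orbital site, 0.0394 with mouse as a block; SE 1.17, 0.015 in brain, 0.29 with the block). The kidney tumors with the most Pklr, of mice 3 and 1 (261.0 and 240.9 CPM), had 818.6 and 3505 CPM of summed proximal tubule markers. Those with the least, of mice 4 and 5, had 10050 and 11680 CPM. Mice 2 and 6 lay between, with 102.1 and 135.5 CPM of Pklr and marker sums of 761.7 and 746.4 CPM. The part of tubule cells in the Pklr results was not tested. Pkm was 98.7% to 99.9% of pyruvate kinase at the retro-orbital site, 99.6% to 99.9% in the brain and 45.4% to 93.3% in kidney tumors.

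Lactate dehydrogenase interconverts pyruvate and lactate, and its A subunit is the one favored in muscle. Ldha had 247.7, 239.2 and 222.6 CPM in control kidneys and 169.5, 264.5 and 302.7 CPM as lowest, median and highest in kidney tumors. The groups overlapped and Ldha was not called (log2 fold change 0.09, SE 0.17, edgeR adjusted p = 0.73). In retro-orbital tumors it had 142.7, 75.9, 99.4 and 109.7 CPM, all below the summed kidney tumor level of every mouse (-1.28, SE 0.20, edgeR adjusted p = 0.00325). This call was kept in every alternative tried. A kidney tumor library of mouse 1 had 138.1 CPM, below the retro-orbital tumor of mouse 2. Brain tumors had 512.4, 99.0 and 252.2 CPM and were not called against either other site. Ldhb, the subunit of heart and kidney, led in every adult group by median, with 79.8% to 81.7% of the pair in control kidneys, 61.5% to 78.7% in kidney tumors and 78.5% to 88.0% in retro-orbital tumors. Ldha led in both fetal groups by median.

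The lactate carriers were both higher in kidney tumors. Slc16a3 (MCT4, ENSMUSG00000025161.16, chromosome 11, 120948480 to 120960868, plus strand), the exporter of highly glycolytic cells, had 0.27, 0.14 and 0.30 CPM in control kidneys, 0.17, 1.76, 0.72 and 0.62 CPM in non-transformed kidneys and 6.63, 21.1 and 58.0 CPM as lowest, median and highest in kidney tumors. All tumors lay above all kidneys of both groups (log2 fold change 6.82, SE 0.91, edgeR adjusted p = 0.00181 against controls; 4.99, SE 0.86, 0.00458 against non-transformed kidney). Slc16a1 (MCT1), the general carrier, had 57.1, 110.9 and 57.8 CPM in control kidneys and 89.9, 349.0 and 546.0 CPM in kidney tumors. The lowest tumor, of mouse 5, overlapped with 1 control (2.15, SE 0.58, edgeR adjusted p = 0.0321). Slc16a1 had 49.0, 34.5, 34.6 and 37.4 CPM in non-transformed kidneys, below all controls but not called lower by edgeR (-0.94, SE 0.25, adjusted p = 0.236), and tumors exceeded them clearly (3.07, SE 0.48, edgeR adjusted p = 0.00284).

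At the other sites the carriers were not called against kidney tumors. Slc16a3 had 34.6 CPM in the retro-orbital tumor of mouse 2 and 7.09 to 8.86 CPM in the other 3, and 47.9, 3.22 and 39.7 CPM in the brain tumors. Slc16a1 remained 88.3% or more of the pair by level in all adult tumors, since it was by far the more abundant. In the fetal model Slc16a3 was called higher, as given below, and the adult change exceeded the fetal one by 5.37 (SE 0.81, edgeR adjusted p = 0.000765).

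Of the gluconeogenic genes, Pcx (ENSMUSG00000024892.16) fell and Pck2 rose. Pcx, which makes oxaloacetate from pyruvate in mitochondria, had 179.8, 239.7 and 254.0 CPM in control kidneys, 315.1, 196.4, 226.9 and 209.7 CPM in non-transformed kidneys, and 69.4, 99.7 and 146.1 CPM as lowest, median and highest in kidney tumors. The tumors lay below both kidney groups (log2 fold change -1.09, SE 0.26, edgeR adjusted p = 0.0206 against controls; -1.19, SE 0.25, 0.0114 against non-transformed kidneys). It was lower again in retro-orbital tumors, at 67.3, 50.3, 55.7 and 53.0 CPM (-0.94, SE 0.23, edgeR adjusted p = 0.0211; 0.0595 with the block), and in brain tumors, at 24.5, 26.7 and 13.5 CPM (-2.28, SE 0.36, 0.0116; 0.267 with the block). With libraries summed by mouse, the 3 sites did not overlap with each other. Kidney tumor libraries of mice 1, 3 and 6 had 62.5, 51.9 and 60.3 CPM, within the retro-orbital range. Pck2, the mitochondrial PEP carboxykinase, had 9.26, 9.73 and 10.4 CPM in control kidneys and 14.7, 20.3 and 31.7 CPM in kidney tumors, without overlap (1.08, SE 0.24, edgeR adjusted p = 0.0158).

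The other 4 gluconeogenic genes varied widely among kidney tumors, and edgeR called none of them between kidney tumors and either kidney group. DESeq2 called G6pc and Fbp2 lower against control kidneys (adjusted p = 0.00929 and 0.0414) and against non-transformed kidneys (0.0479 and 0.0218). Without mouse 4, edgeR called G6pc and Fbp2 lower against control kidneys and Fbp2 lower against non-transformed kidneys. Pck1, the cytosolic PEP carboxykinase, had 1285, 1685 and 1341 CPM in control kidneys. In the kidney tumors of mice 1 to 6 it had 205.8, 60.6, 21.1, 955.1, 616.0 and 6.31 CPM. The tumors of mice 4 and 5 thus kept the most, and those of mice 2, 3 and 6 the least (log2 fold change -2.24, SE 1.18, edgeR adjusted p = 0.201). G6pc, which releases glucose, had 473.7, 581.2 and 477.4 CPM in controls and 52.4, 4.40, 3.66, 145.3, 92.6 and 3.85 CPM in the same tumors (-3.37, SE 1.12, edgeR adjusted p = 0.0628). Fbp1 had 351.0, 323.0 and 268.6 CPM in controls and 57.1, 7.25, 8.33, 215.7, 172.4 and 17.7 CPM (-2.0, SE 0.98, edgeR adjusted p = 0.172). For G6pc and Fbp1 every tumor lay below every control, and for Pck1 as well.

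The order of the mice was nearly the order of their proximal tubule markers. Mice 4, 5 and 1 had the highest sums (10050, 11680 and 3505 CPM) and the highest Pck1, G6pc and Fbp1, and mice 2, 3 and 6 the lowest of all. Pcx was highest in mice 5 and 4 (146.1 and 144.8 CPM), then in mice 2, 1, 6 and 3 (116.9, 82.6, 82.0 and 69.4 CPM). Hk2, Pfkp, Pfkfb3, Aldoa, Eno2, Pkm, Slc16a1 and Slc16a3, called higher against control kidneys, were lowest in mice 1, 4 and 5. Slc2a3, Pfkfb1, Eno3 and Pck2, also called higher, were not. Of the 5 mice with 2 kidney tumor libraries, the library with more tubule markers had more Pck1, G6pc and Fbp1 in sum in mice 1, 4 and 6 and less in mice 2 and 3. In mouse 1 the libraries had 5489 and 1470 CPM of tubule markers and sums of 582.0 and 47.3 CPM, and in mouse 2 they had 1102 and 483.0 CPM and sums of 54.1 and 92.4 CPM. Retro-orbital tumors, outside the kidney, had 1.62 to 11.7 CPM of Pck1 in mice 2, 3 and 6 with tubule sums of 104.0 to 171.1 CPM, but 129.0 CPM in mouse 5 with a sum of 1397 CPM. That tumor also had the most G6pc (18.9 CPM) and Fbp1 (24.3 CPM) at its site. None of the 8 markers was called by edgeR in any comparison, and their part in these results was not tested.

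**Figure D4:**
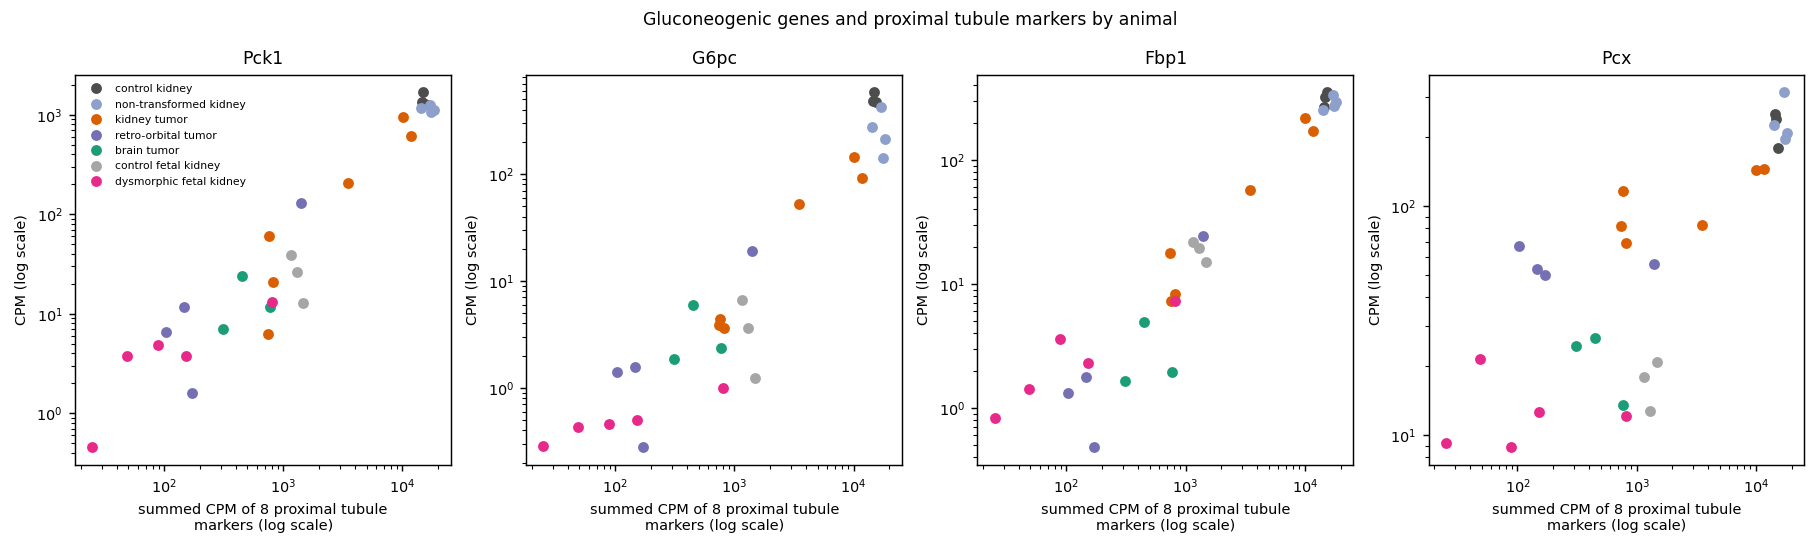
Level of Pck1, G6pc, Fbp1 and Pcx (CPM, log scale, vertical) against the summed level of 8 proximal tubule markers (CPM, log scale, horizontal), 1 point per animal, colored by group. Kidney tumors spread from 746.4 to 11680 CPM on the horizontal axis and from 6.31 to 955.1 CPM in Pck1. Pcx spans 69.4 to 146.1 CPM over the same tumors and is highest in those of mice 4 and 5, which hold the most tubule markers.

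Fbp2, the muscle bisphosphatase, was low throughout the adult groups (9.22 to 12.0 CPM in control kidneys) and was called lower in brain than in kidney tumors (log2 fold change -4.48, SE 1.14, edgeR adjusted p = 0.0437), at 0.16, 0.08 and 0.08 CPM against 0.37 to 7.43 CPM. In retro-orbital tumors 1 animal had 2 counts of it. With mouse as a block, Fbp1, Fbp2 and G6pc were called lower at the retro-orbital site than in the kidney (edgeR adjusted p = 0.0158, 0.0404 and 0.037), as was Aldoc (0.04). The leading PEP carboxykinase, Pck1 in the kidney groups and kidney tumors by median, was Pck2 in retro-orbital tumors, with a median of 62.6% per kilobase and a range of 7.45% to 93.9%.

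Counted by comparison, retro-orbital against kidney tumors had 4 members higher and 4 lower, with 8.26% and 9.45% of all genes. Higher were Slc2a3, Pfkm, Pfkfb2 and Eno2, and lower were Pfkl, Pklr, Ldha and Pcx; with mouse as a block 10 were called, among them 6 of these 8. With 1 mouse left out, Slc2a3 was lost without mouse 5 or 6, Pfkl without mouse 3 or 6, Pfkm without mouse 2, 3 or 6, and Pcx without mouse 2, 4, 5 or 6, while Pfkfb2, Eno2, Pklr and Ldha were kept throughout. Endothelial markers summed to 742.1 to 1048 CPM in retro-orbital tumors and 240.3 to 540.3 CPM in kidney tumors, without overlap, and 2 of the 4 were called higher, as were 1 of 9 leukocyte and 1 of 5 retina markers. Their part in these results was not tested. Brain against kidney tumors had 5 higher and 3 lower, with 4.54% and 4.2% of all genes. Higher were Slc2a3, Pfkm, Pfkfb2, Aldoc and Eno2, and lower were Pklr, Fbp2 and Pcx. None of these 8 was called with mouse as a block or without mouse 2; over the whole table the calls went from 2044 to 0 and 300 in these fits. Slc2a3, Pfkm, Pklr and Fbp2 were also lost without mouse 1, Pfkm without mouse 3, 5 or 6, Aldoc without mouse 3, 4, 5 or 6, and Fbp2 without mouse 4, 5 or 6. The 2 comparisons share their kidney tumors. Between brain and retro-orbital tumors no member of the 35 tested was called by edgeR, with 0.395% of all genes higher and 1.34% lower; 8 had an unadjusted p under 0.05 and DESeq2 called 5.

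In dysmorphic fetal kidneys Pfkm, Aldoa, Pgam2, Eno3 and Slc16a3 rose and G6pc fell, 5 and 1 of the 36, with 2.4% of all genes higher and 0.269% lower. Pfkm, Pgam2 and Eno3 are the muscle isozymes of their families, and Slc16a3 and Aldoa are also abundant in muscle. Pgam2 had 21.7, 22.9 and 18.8 CPM in control fetuses 1 to 3 and 114.8, 44.0, 97.7, 125.9 and 77.9 CPM in dysmorphic fetuses 1 to 5 (log2 fold change 2.10, SE 0.33, edgeR adjusted p = 0.035). Eno3 had 92.0, 97.9 and 90.1 CPM in controls and 517.4, 194.3, 408.1, 551.8 and 302.9 CPM in dysmorphic kidneys (2.06, SE 0.33, edgeR adjusted p = 0.035). In both genes no dysmorphic kidney overlapped with a control, and fetus 2 was the lowest and fetus 4 the highest of the dysmorphic group.

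Markers of skeletal muscle, which a kidney should lack, followed the same order. The 11 markers, none at 0 throughout a fetal group, summed to 1538, 1543 and 1239 CPM in the controls and to 6818, 3047, 6591, 7354 and 4252 CPM in dysmorphic fetuses 1 to 5, and 9 of the 11 were called higher. In all adult groups the sum was 3.76 to 156.7 CPM, so even the control fetal kidneys held muscle transcripts. The part of muscle tissue in these results was not tested. Pfkm had 68.6, 61.9 and 64.9 CPM in controls and 234.0, 102.2, 217.0, 290.0 and 192.6 CPM in dysmorphic kidneys (log2 fold change 1.64, SE 0.30, edgeR adjusted p = 0.0382). Aldoa had 622.4, 622.6 and 626.2 CPM and 1484, 976.1, 1342, 1667 and 1177 CPM (1.07, SE 0.17, 0.035 by edgeR, adjusted). Slc16a3 had 10.2, 7.20 and 9.78 CPM and 30.8, 18.6, 26.0, 31.2 and 23.2 CPM (1.49, SE 0.22, 0.035 by edgeR, adjusted).

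**Figure D5:**
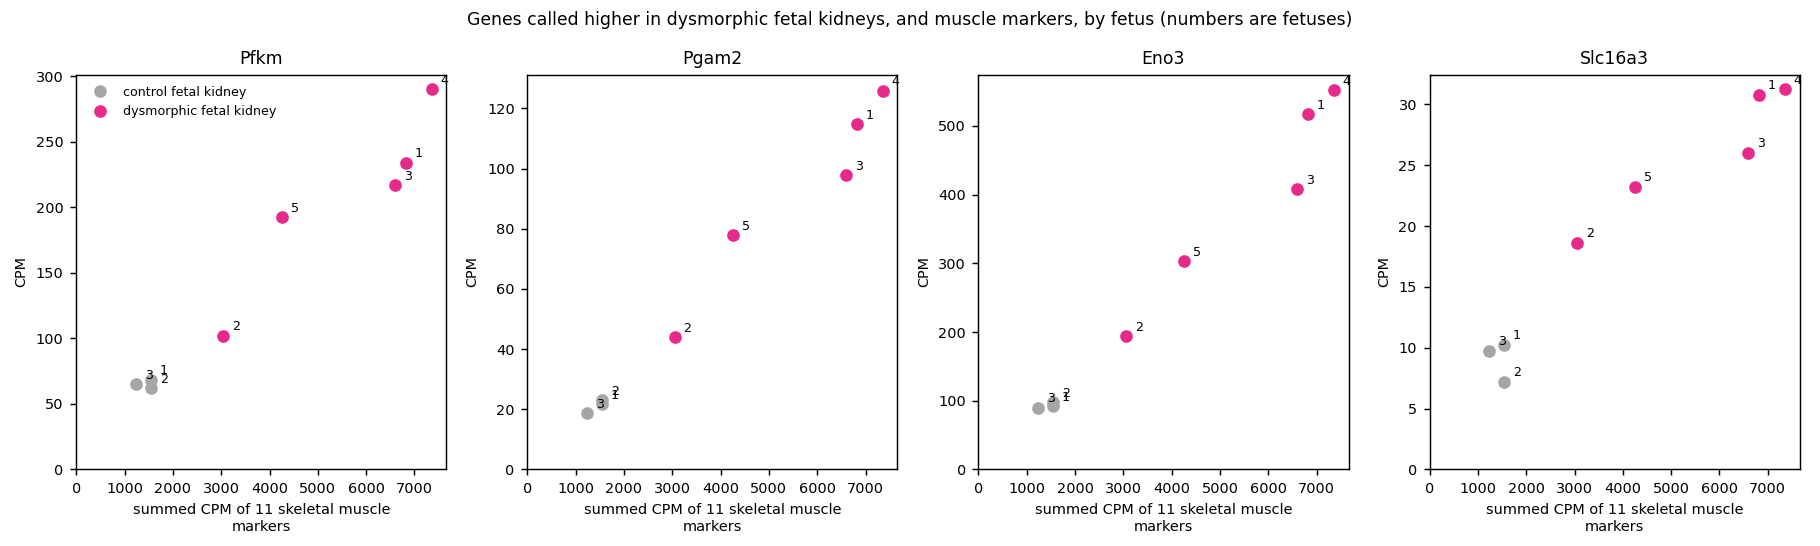
Level of Pfkm, Pgam2, Eno3 and Slc16a3 (CPM, vertical) against the summed level of 11 skeletal muscle markers (CPM, horizontal) in 3 control and 5 dysmorphic fetal kidneys; numbers name the fetus. Controls sit at 1239 to 1543 CPM of muscle markers and dysmorphic kidneys at 3047 to 7354 CPM, and fetus 2 is the lowest dysmorphic kidney on both axes in all 4 panels.

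G6pc was low in the fetal kidneys, at 1.23, 6.56 and 3.66 CPM in controls and 0.43, 0.51, 0.46, 0.28 and 1.001 CPM in dysmorphic kidneys (log2 fold change -2.86, SE 0.57, edgeR adjusted p = 0.0441). Proximal tubule markers summed to 1162 to 1475 CPM in the controls and to 48.9, 151.3, 89.0, 25.0 and 809.2 CPM in dysmorphic fetuses 1 to 5. Fetus 5, with the most tubule markers, also had the most Pklr of its group, 113.4 CPM beside 0.29 to 4.06 CPM in the others. Among the controls, fetus 1 had 3.67 CPM of Pklr, 2.53 CPM of Hkdc1 and 3.10 CPM of Fbp2, while fetuses 2 and 3 had 95.9 and 180.3, 43.1 and 66.0, and 49.8 and 77.9 CPM. None of these genes was called. All 6 fetal calls were lost with sex as a covariate and without any of 6 of the 8 fetuses (the 3 controls and dysmorphic fetuses 1, 3 and 4). Over the whole table the calls went from 605 to 5 with sex as a covariate and to 0 in each of those 6 fits. Without dysmorphic fetus 5 all 6 were kept, and without dysmorphic fetus 2 all but G6pc. With the title prefix that fetuses of both groups share as a block, Pfkm (edgeR adjusted p = 0.0513) and G6pc (0.0568) were lost and Gpi1 was gained.

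The fusion changed the adult tumors and the fetal kidneys differently in 9 of the 36 genes by the interaction test, 7 with a larger value in adults and 2 with a smaller one, beside 6.87% and 2.07% of all genes. Larger in adults were Hk2, Pfkp, Pfkfb1, Pfkfb3, Eno2, Slc16a3 and Pck2, with differences in log2 fold change of 1.47 (Pck2) to 8.16 (Hk2). Smaller in adults were Pfkm (-1.64, SE 0.38, edgeR adjusted p = 0.0154) and Pgam2 (-4.50, SE 1.35, 0.0499), the muscle forms whose fetal rise is given above with the muscle markers. The calls of Pfkfb1 and Pgam2 were lost with RLE size factors, leaving 7, and those of Pfkp, Pfkfb1 and Pgam2 without a filter on low counts, leaving 6. Each of these 3 was also lost in most fits that left out 1 animal. The models differ in Cre driver, age and tissue state at once, and these cannot be told apart.

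By group medians, the leading isozyme of hexokinase (Hk1 to Hk2) and of phosphoglycerate mutase (Pgam2 to Pgam1) was another in kidney tumors than in control or non-transformed kidneys, the first with and without length correction. No family differed in this between non-transformed and control kidneys. Retro-orbital tumors differed from kidney tumors in 1 family, PEP carboxykinase, and brain tumors in none; brain and retro-orbital tumors differed in that family alone, and not without length correction. Dysmorphic and control fetal kidneys differed in 4: hexokinase (Hkdc1 to Hk2), the bifunctional enzyme (Pfkfb4 to Pfkfb3), enolase (Eno1 to Eno3) and PEP carboxykinase (Pck1 to Pck2), of which hexokinase and PEP carboxykinase had Hk2 and Pck2 as the new leader without length correction too. These are medians of groups and carry no test.

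Of 37 further genes of glucose metabolism, 36 could be tested in the adult groups. Against control kidneys, 3 rose and 2 fell in kidney tumors, smaller shares than the 12.5% and 6.51% over the whole table, and their median log2 fold change was -0.05. G6pdx and Pgd, both oxidative enzymes of the pentose phosphate branch that leaves glycolysis at glucose 6-phosphate, rose: G6pdx from 46.65 to 47.4 CPM in controls to 77.2 to 290.6 CPM in tumors (log2 fold change 1.88, SE 0.46, edgeR adjusted p = 0.0236), and Pgd from 25.8 to 31.3 CPM to 54.5 to 368.2 CPM (2.86, SE 0.66, 0.0193). Pdhb, a subunit of pyruvate dehydrogenase, rose by 1.32 and its inhibitory kinase gene Pdk2 fell by 0.78 on the log2 scale. Slc37a4, which carries glucose 6-phosphate to G6pc, fell from 69.2 to 122.0 CPM in controls to 11.65 to 48.15 CPM in tumors (-1.80, SE 0.39, edgeR adjusted p = 0.0156).

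Of these 36 genes, 7 were higher and 3 lower in kidney tumors than in non-transformed kidneys, beside 12.1% and 5.02% of all genes. Retro-orbital tumors had 3 of the 36 higher and 8 lower than kidney tumors, beside 8.26% and 9.45% of all genes, among them Tigar (log2 fold change 1.87, SE 0.24, edgeR adjusted p = 0.00175), whose product lowers fructose 2,6-bisphosphate, and Pgd, which was lower (-2.34, SE 0.58, 0.0205). The glycogen phosphorylase Pygl of liver was the single gene called between brain and retro-orbital tumors, at 6.215, 8.49 and 9.16 CPM against 92.0, 51.1, 69.9 and 81.9 CPM (-3.23, SE 0.28, edgeR adjusted p = 0.013). In the fetal kidneys only the muscle phosphorylase Pygm was called, higher in the dysmorphic group (2.0, SE 0.32, edgeR adjusted p = 0.035).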

How the data were processed

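RNA from formalin-fixed, paraffin-embedded tissue was sequenced with a stranded total RNA kit. The authors deposited raw counts per gene, in 2 tables of 28 and 8 libraries. The submitters' processing notes name STAR 2.5.2a, Bowtie2, FastQC, MultiQC and the GRCm38 (mm10) build. The counter, its annotation and its treatment of multi-mapped reads are not given in the sources used here. Of counts from 1 to 20, 79.04% to 84.33% were even, more than single counting of reads would give, so halved counts were an alternative. Gene IDs were named by GENCODE vM21 (53274 of 53379 matched, ignoring version), and exon lengths and coordinates came from it.

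Libraries of a mouse and group were summed, giving 28 units from 17 animals. Levels are CPM (counts scaled to the library total) after TMM normalization over all units. Each comparison was tested on its own groups with edgeR 4.0.16 (quasi-likelihood test, filterByExpr, Benjamini-Hochberg adjustment over all genes tested, threshold 0.05) in R 4.3.3. The interaction used the 4 groups of control kidneys, kidney tumors and both fetal kidneys. Isozyme shares used CPM per kilobase of union exon. Alternatives were DESeq2 1.42.0, RLE size factors, no filter on low counts, halved counts, mouse or title prefix as a block, sex as a covariate, and each animal left out in turn. Tumors and non-transformed kidney of a mouse share that animal by the labels, so the mouse numbers pair them; the correlation of their deviations was -0.0578 to 0.16 for non-transformed kidney, 0.244 to 0.331 for retro-orbital and -0.0732 to -0.0596 for brain tumors, against kidney tumors. Data were simulated at these depths with 200 genes changed by 2 on the log2 scale. In kidney tumors against control kidneys (23578 genes), edgeR recovered 63% with 5 false calls and DESeq2 86% with 96. In non-transformed against control kidneys (21019 genes), edgeR recovered 90% with 13 false calls and DESeq2 96% with 74. In the fetal comparison (22690 genes), edgeR recovered 53.5% with 9 false calls and DESeq2 90% with 106. In the measured non-transformed and control kidneys edgeR called 2 genes. Whether the simulated spread matched the measured one was not tested.

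The genes, the wider pathway list and the marker lists were chosen with earlier results of these data known. Any of the 36 genes could be named; genes of the wider pathway list were named where called. Some genes of the wider list are not reported here.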

Additional observations from a re-analysis of the deposited data

Results flagged for a closer look

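Dixon's test on CPM looked for an animal far from the rest in 144 levels of a gene in a group of 4 to 6 animals. About 1 in 20, or 7.2, would be flagged if values were normally spread and levels independent. Many levels share an animal, so the number flagged cannot be set against this expectation. The test flagged 18 levels. In the retro-orbital tumor of mouse 5 these were the highest values of Pck1 (129 CPM), Fbp1 (24.3 CPM), G6pc (18.9 CPM), Fbp2 (0.915 CPM), Pklr (3.66 CPM), Pgam2 (2.0 CPM) and Pfkp (225 CPM); its proximal tubule markers summed to 1397 CPM against 104.0 to 171.1 CPM in the other 3, and their part was not tested. The retro-orbital tumor of mouse 2 had the highest Slc16a3 (34.6 CPM). The kidney tumor of mouse 4 had the highest Pgam2 (22.4 CPM) and Fbp2 (7.43 CPM). The non-transformed kidney of mouse 5 had the highest Eno2 (32 CPM) and the lowest Fbp2 (5.2 CPM).

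Among dysmorphic fetal kidneys, fetus 2 had the highest Slc2a1 (65.8 CPM) and Hk2 (233 CPM), and fetus 5 the highest Hkdc1 (41.1 CPM), Aldoc (18.8 CPM), Pklr (113 CPM) and Fbp2 (48.0 CPM). Fetus 5 also had the most proximal tubule markers of its group, 809.2 CPM.

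The log2 change with the fusion differed between adult tumors and fetal kidneys in 9 genes by edgeR's interaction test: by 8.158 for Hk2, 5.371 for Slc16a3, 4.126 for Eno2, 3.51 for Pfkfb3, 1.994 for Pfkp, 1.942 for Pfkfb1, 1.474 for Pck2, -1.637 for Pfkm and -4.501 for Pgam2.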

How the results depend on the processing

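Counts of genes called over the whole table moved with the setting too. In kidney tumors against control kidneys they were 4474, 6118 with sex as a covariate, 1163 without control mouse 2 and 4863 without mouse 4. Against non-transformed kidneys they were 3755, and 847 with mouse as a replicate block. In the fetal comparison they were 605, 2571 by DESeq2 and 5 with sex as a covariate. Hk2, Pfkfb3, Eno2, Eno3 and Slc16a3 were called in kidney tumors against control kidneys under all alternatives run. The count of the 36 genes there was 13, became 22 with sex as a covariate, and ranged from 5 (without control mouse 2) to 18 (without mouse 4) with animals left out. Against non-transformed kidneys it was 14, became 9 with mouse as a replicate block, and ranged from 8 (without mouse 3) to 14 (without mouse 5). Between the kidney groups it was 0, became 2 by DESeq2 and 1 without a filter on low counts, and ranged from 0 to 1 (Hk2, without mouse 5). For retro-orbital against kidney tumors it was 8, became 13 by DESeq2, and ranged from 4 (without mouse 6) to 10 (without mouse 1). For brain against kidney tumors it was 8, became 0 with mouse as a replicate block, and ranged from 0 (without mouse 2) to 6 (without mouse 3). For brain against retro-orbital tumors it was 0, became 5 by DESeq2 and 1 with halved counts, and ranged from 0 to 2 (without mouse 1). The fetal count was 6, became 11 by DESeq2 and 0 with sex as a covariate, and ranged from 0 to 7 (without dysmorphic fetus 5). With title prefix as a replicate block it was 5. The interaction count was 9, became 7 with RLE size factors and 6 without a filter on low counts, and ranged from 5 (without control mouse 2) to 12 (without mouse 5).

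Signs turned in brain tumors when 1 mouse was left out. Slc2a1 ranged from -0.2951 (without mouse 4) to 2.024 against kidney tumors and from -0.2907 to 1.954 against retro-orbital tumors. Against retro-orbital tumors, Fbp1 ranged from -2.322 to 1.226 and Pck1 from -2.352 to 1.095, both highest without mouse 5. Without length correction, the families with another leading isozyme became 1 between the kidney groups, 1 between brain and kidney tumors and 0 between brain and retro-orbital tumors. Apart from the left-out mice and the length correction, the cause was not tested.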
